A study of Homo sapiens with 3 samples.

Results

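The genes described here lie on the long arm of human chromosome 7, in bands 7q22 to 7q32 around MET, the gene of the receptor for hepatocyte growth factor. They were chosen by position, as the rows of the deposited table that lie on chromosome 7 between 102000000 and 127800000 (GRCh37), and the window itself was selected on expression values, because a block of neighbouring genes there had raised values in erlotinib-resistant over vehicle cells. MET, CAV1, CAV2, LAMB1, LAMB4, NDUFA5 and symbols that start with SLC or LINC or hold a hyphen were left out, 15 rows in all. The remaining 174 rows carry 171 symbols, of 31402 rows and 30866 symbols in the table. HCC827 is an established human lung cancer line of the non-small cell kind with a mutant EGF receptor, and the cells carried the ClonTracer barcode library as a polyclonal pool. The dual-resistant population came from the erlotinib-resistant population after 10 more days in 2 µM erlotinib with 0.2 µM crizotinib, a MET kinase inhibitor. The erlotinib-resistant population had 47 days in 2 µM erlotinib, which blocks the kinase of that receptor, and the vehicle population had 4 days in 0.1% DMSO.

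Each population gave 1 library, so nothing below has a replicate, an error or a test, and drug, length of treatment and resistance cannot be told apart. Expression is in FPKM, which counts fragments relative to transcript length and sequencing depth, so levels can be compared between genes. Differences are log2 differences of FPKM + 1, folds are on the same scale, and a gene is called higher or lower at a log2 difference of 1 or more, which is a 2-fold difference. By an estimate from single-exon genes, about 43.1 fragments from dual-resistant, 46.9 from erlotinib-resistant and 67.1 from vehicle cells lay behind 1 FPKM over 1 kb. Of 8 markers of airway and lung epithelium, 7 or more reached 1 FPKM in each library, and their sum was 1821 FPKM in dual-resistant, 3489 in erlotinib-resistant and 3878 in vehicle cells. The one that did not in every library was SFTPB, a surfactant gene, with at most 2.00 FPKM. Markers of leukocytes, endothelium and fibroblasts summed to between 0.111 and 5.39 FPKM. Of these, CD3E and PDGFRA were at 0 throughout. Each of the epithelial markers had its lowest value in dual-resistant cells, by unlike amounts. EPCAM, which marks epithelium, stood at 41.1 FPKM in dual-resistant, 345 in erlotinib-resistant and 306 in vehicle cells. KRT8 stood at 542 FPKM in dual-resistant, 573 in erlotinib-resistant and 905 in vehicle cells. NKX2-1 stood at 28.4 FPKM in dual-resistant, 40.0 in erlotinib-resistant and 56.0 in vehicle cells. The lower epithelial sum of dual-resistant cells stands beside every dual-resistant value given here, and its part in them was not tested. In a bulk library, more cells with a high level and more RNA per cell cannot be told apart.

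MET signals through the RAS and PI3K pathways to drive growth and movement, and gain of MET copies is a known way in which lung cancer cells escape inhibition of the EGF receptor. The genes next to it belong to no single pathway. They include actin regulators, RNA modifying enzymes, chromatin and replication factors, mitochondrial enzymes and parts of the Golgi and endoplasmic reticulum. MET itself (chromosome 7, 116312459 to 116438440) stood at 96.2 FPKM in dual-resistant cells, 763 FPKM in erlotinib-resistant cells and 98.9 FPKM in vehicle cells. It was high in erlotinib-resistant cells and nearly equal in the other two. DNA copies were not analysed here.

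Of the 171 members, 62 were listed at 0 in the 3 libraries, 44 lay above 0 and under 1 FPKM in each, and 65 reached 1 FPKM in at least 1 library. The counts that follow are over those 65, of which 58 are annotated as protein-coding. Among them, 6 reached 1 FPKM in only 1 library, which by the filter had to be their highest. The 4 microRNA rows of the window were all listed at 0. In the dual-resistant library the values of ARMC10 and NAPEPLD are missing, which leaves 63 members in both comparisons with that library.

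Of 65 members, 16 (24.6%) were higher in erlotinib-resistant than in vehicle cells and none was lower. Over all 13381 genes compared, 3.81% were higher and 6.03% lower. The window was picked on this contrast, so these counts describe the block and support nothing beyond it. The members' median log2 difference was 0.71, against 0.00 for all genes, and 59 of the 65 members stood above 0. The lowest was uc003vla, a transcript without a gene name, at -0.39, and the highest was CAPZA2 at 2.21. With a pseudocount of 5 in place of 1, 1.25% of all genes were higher. Past the limit were then 6 of the 65 members: SRPK2, DNAJC2, ZNF277, MDFIC, TES and CAPZA2. LRWD1, NAPEPLD, PUS7, SYPL1, DUS4L, TMEM168 and ST7 then lay under it, at 0.61 to 0.98, and so did FBXL13, FOXP2 and AASS, which stood under 5 FPKM in each library.

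**Figure D1:**
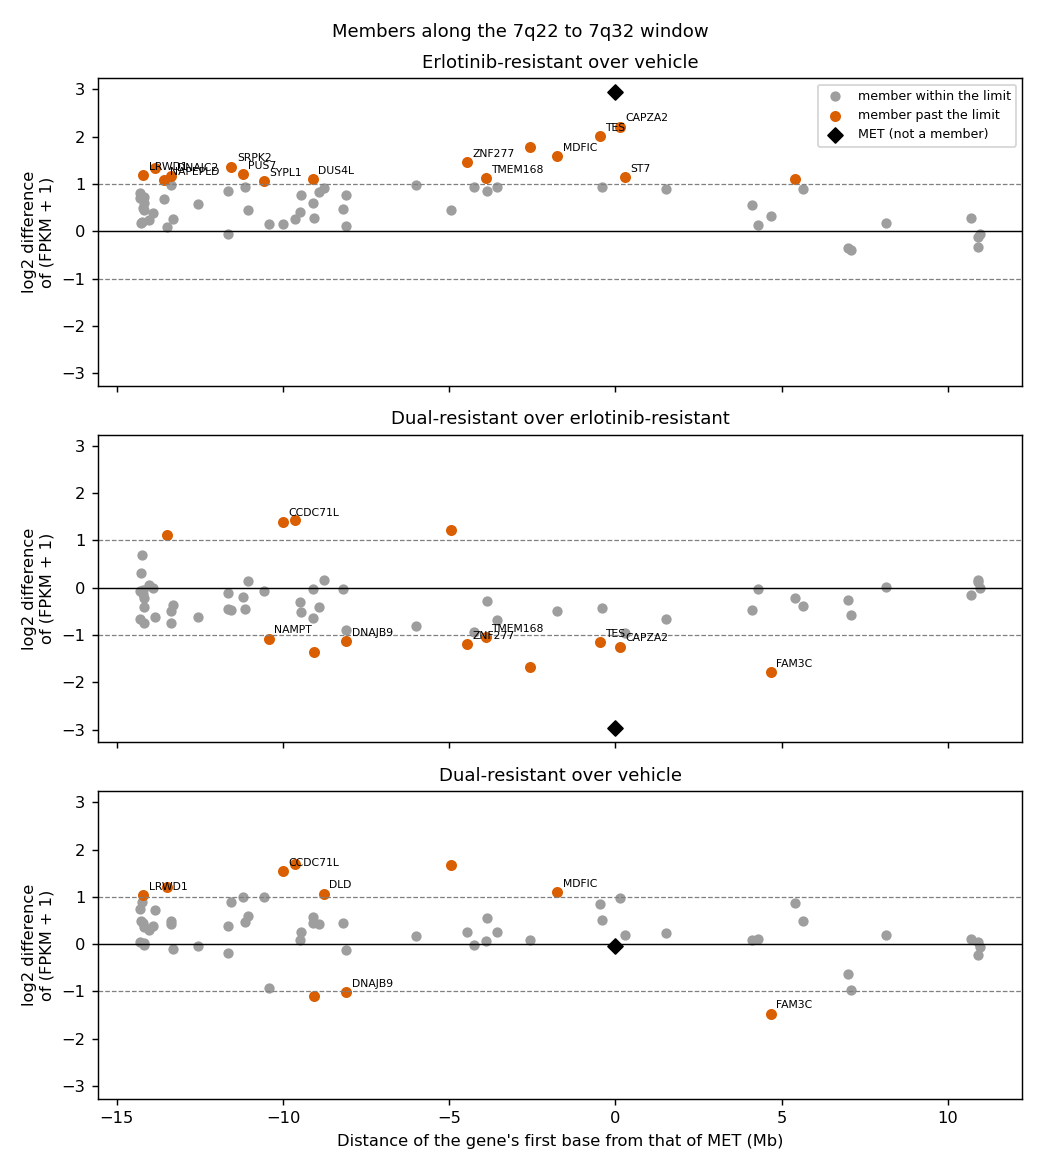
Log2 difference of FPKM + 1 (vertical axis) of the 65 members that reached 1 FPKM in at least 1 library, by the distance of each gene from the first base of MET in Mb (horizontal axis), in the 3 comparisons. Orange points passed the dashed limit of 1 in either direction and carry a name where they reached 5 FPKM, grey points did not pass, and the black diamond is MET. In the top panel the highest members, CAPZA2 at 2.21 and TES at 2.01, lie beside MET, and the members farthest to the right lie near 0.

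The 2 largest differences were those of CAPZA2 and TES, which flank MET. CAPZA2, the alpha subunit of the protein that caps actin filament ends (chromosome 7, 116451124 to 116559313), stood at 115 FPKM in dual-resistant cells, 275 FPKM in erlotinib-resistant cells and 58.6 FPKM in vehicle cells. Erlotinib-resistant cells thus stood 4.63-fold over vehicle. TES, which encodes testin, a LIM domain protein of focal adhesions (115850547 to 115898837), stood at 109 FPKM in dual-resistant, 245 in erlotinib-resistant and 60.1 in vehicle cells, with erlotinib-resistant cells 4.03-fold over vehicle. Both genes had their highest value in erlotinib-resistant cells and an intermediate one in dual-resistant cells. The unnamed transcript uc003vhq, at 0.893 FPKM in dual-resistant, 1.55 in erlotinib-resistant and 0.327 in vehicle cells, lies inside TES, so their fragments may have been divided between them.

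The promoter of TES is shown because it is the start of a member that was among the highest in the block. It was taken from RefSeq (GRCh38.p14, plus strand, chr7:116210289-116210588, the first of 2 listed starts) and runs from 250 bases before the start to 50 after it. Capitals mark CCAAT and GGGCGG on either strand.
TES: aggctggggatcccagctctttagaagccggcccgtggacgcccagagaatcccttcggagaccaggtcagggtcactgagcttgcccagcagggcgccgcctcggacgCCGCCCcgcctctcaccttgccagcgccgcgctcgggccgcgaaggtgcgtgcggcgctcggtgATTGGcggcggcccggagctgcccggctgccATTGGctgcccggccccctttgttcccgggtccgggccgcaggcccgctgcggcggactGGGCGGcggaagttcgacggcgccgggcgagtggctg
It holds 2 matches to CCAAT and 2 to GGGCGG, and none to TATAAA. Of all 35116 promoters of this length in the table, 34.6% hold CCAAT, 45.0% GGGCGG and 11.5% TATAAA.

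Farther out on the side toward the centromere, MDFIC, a relative of the inhibitor of MyoD family factors (114562209 to 114659970), stood at 13.0 FPKM in dual-resistant cells, 18.6 FPKM in erlotinib-resistant cells and 5.55 FPKM in vehicle cells, a log2 difference of 1.58 between erlotinib-resistant and vehicle cells. FOXP2, a forkhead transcription factor, stood at 0.380 FPKM in dual-resistant, 3.44 in erlotinib-resistant and 0.298 in vehicle cells. It passed 1 FPKM only in erlotinib-resistant cells, and the filter fixed its direction. On the other side of MET, ST7, named as a suppressor of tumorigenicity (116593381 to 116870075), stood at 12.0 FPKM in dual-resistant, 24.2 in erlotinib-resistant and 10.4 in vehicle cells, or 2.21-fold over vehicle in erlotinib-resistant cells. NAA38, now LSM8, a subunit of the LSM ring that binds U6 RNA, stood at 2.90 FPKM in dual-resistant, 5.18 in erlotinib-resistant and 2.31 in vehicle cells, with a log2 difference of 0.90 between the erlotinib-resistant and vehicle libraries. Of the 7 members within 2 Mb of MET, 5 were higher in erlotinib-resistant cells than in vehicle, with a median log2 difference of 1.58. Of the 58 members farther away 11 were higher, with a median of 0.59. Over all genes 3.81% were higher. The 7 include FOXP2 and uc003vhq, which lies inside TES, and the filter fixed the direction of both. The window was picked on this contrast, so these counts describe the block only.

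The window was divided into 5 segments of 5.16 Mb, numbered from the centromere side. The members' median log2 difference between the erlotinib-resistant and vehicle libraries was 0.60 in segment 1, with 7 of 31 members higher, and 0.80 in segment 2, with 2 of 12 higher. Segment 3, which holds MET, had a median of 1.14 with 6 of 9 higher, and segment 4 a median of 0.72 with 1 of 6 higher. Segment 3 also holds FOXP2 and uc003vhq, whose direction the filter fixed. In segment 1 it likewise fixed that of RASA4, over 1 FPKM only in erlotinib-resistant cells, and of LOC100216545, over it only in vehicle cells. In segment 5 none of 7 was higher and the median was -0.12. The last 4 segments rest on few genes each. Over all genes 3.81% were higher and 6.03% lower. The window was picked on this contrast, so the segments are a description.

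The raised values did not end at the window's edge on the centromere side. In the stretch of chromosome 7 of equal length before the window, the median over 130 genes was 0.53 between erlotinib-resistant and vehicle cells, and 22 genes were higher and 4 lower. In the stretch of equal length after the window the median over 123 genes was -0.06, and 2 genes were higher and 8 lower. The shares were 16.9% higher and 3.08% lower before the window, and 1.63% and 6.50% after it. Over all genes they were 3.81% and 6.03%. By the same difference, erlotinib-resistant over vehicle, SH2B2 just outside the first edge differed by 0.40, CUX1 by 0.80 and RABL5 by 0.45, and just inside it LOC100289561 differed by 0.81, LOC100630923 by 0.71 and PRKRIP1 by 0.17. At the other edge, GCC1, ARF5 and SND1 just inside it differed by -0.12, -0.34 and -0.05, and RBM28, IMPDH1 and HILPDA just outside it by 0.46, -0.26 and -1.13. Some of the rows at the first edge overlap each other: LOC100630923 covers the positions of both LOC100289561 and PRKRIP1, so their values are uncertain.

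**Figure D2:**
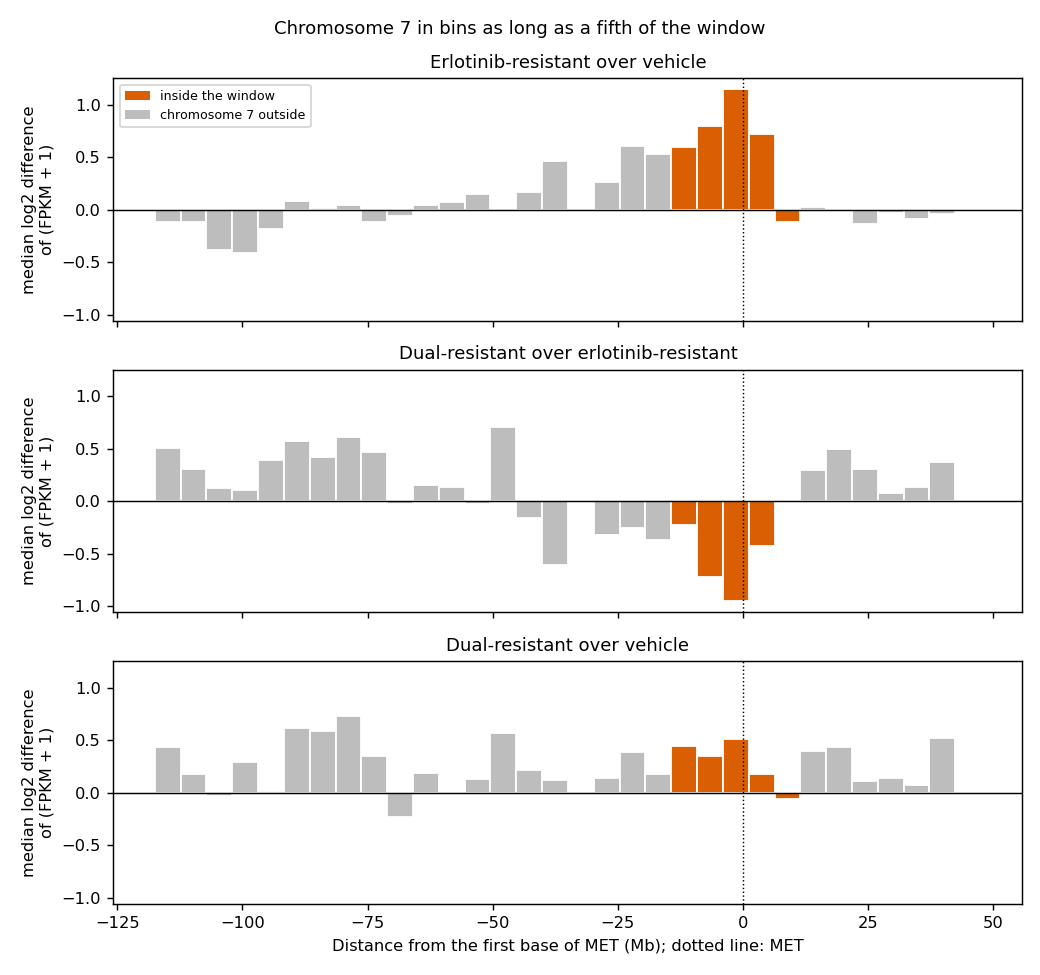
Median log2 difference of FPKM + 1 (vertical axis) in bins of 5.16 Mb along chromosome 7, placed by distance from MET in Mb (horizontal axis), with the window's 5 bins in orange. Bins with fewer than 5 genes have no bar, and the dotted line marks MET. In the top panel the bar that holds MET stands at 1.14 and the bars on its centromere side stay above 0 up to the window's edge and beyond, and the last orange bar stands at -0.12.

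Actin and adhesion genes of the window were mostly under 1 FPKM. Of 13 in the list, 5 passed 1 FPKM, among them CAPZA2 and TES, the 2 that were higher in erlotinib-resistant than in vehicle cells. WASL, the N-WASP protein that activates actin branching (123321997 to 123389116), stood at 24.2 FPKM in dual-resistant cells, 29.3 FPKM in erlotinib-resistant cells and 38.0 FPKM in vehicle cells. It lies in segment 5 and was the member of this list with its highest value in vehicle. The list also held CADPS2, a factor of vesicle release, which stood at 1.88 FPKM in dual-resistant, 2.77 in erlotinib-resistant and 1.04 in vehicle cells. The log2 difference of erlotinib-resistant over vehicle cells was 2.21 for CAPZA2, 2.01 for TES, 0.45 for DOCK4 and -0.36 for WASL, and that of CADPS2, 0.88, was the median of the 5. Between dual-resistant and erlotinib-resistant cells 1 of the 5 was higher, DOCK4, and 2 were lower, CAPZA2 and TES. Over vehicle cells DOCK4 was again the 1 higher. Over all genes, 10.1% were higher and 7.22% lower in the first of these comparisons, and 11.0% and 10.4% in the second. In erlotinib-resistant over vehicle cells 3.81% of all genes and 24.6% of the members were higher. The lists here and below are short, and their counts describe the named genes only.

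RNA processing and modification genes numbered 6, all over 1 FPKM. Of these, 3 were higher in erlotinib-resistant than in vehicle cells, with a median log2 difference close to the limit. That is 50% of the 6, against 24.6% of the members and 3.81% of all genes. SRPK2, a kinase of splicing factors (104755716 to 105039798), stood at 16.0 FPKM in dual-resistant cells, 22.8 FPKM in erlotinib-resistant cells and 8.24 FPKM in vehicle cells. PUS7, a pseudouridine synthase, stood at 19.7 FPKM in dual-resistant, 22.9 in erlotinib-resistant and 9.37 in vehicle cells. DUS4L, a member of the dihydrouridine synthase family, stood at 8.62 FPKM in dual-resistant, 14.1 in erlotinib-resistant and 6.03 in vehicle cells. Erlotinib-resistant cells stood 2.57-fold over vehicle for SRPK2, 2.30-fold for PUS7 and 2.14-fold for DUS4L, whereas SND1, a nuclease-domain protein at the far edge (127292202 to 127732659), stood at 89.3 FPKM in dual-resistant, 89.9 in erlotinib-resistant and 93.0 in vehicle cells. C7orf60, now SAMTOR, a sensor of S-adenosylmethionine, stood at 5.05 FPKM in dual-resistant, 6.41 in erlotinib-resistant and 3.13 in vehicle cells. Its place on this list is uncertain, and its log2 difference of 0.84 between the erlotinib-resistant and vehicle libraries enters the median. Between dual-resistant and erlotinib-resistant cells, none of the 6 passed the limit.

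Of 17 genes of transcription, chromatin and telomeres, 15 passed 1 FPKM and 3 were higher in erlotinib-resistant cells than in vehicle: FOXP2, MDFIC and ZNF277. The median of the 15 was 0.60. The 3 are 20% of the 15, against 24.6% of the members and 3.81% of all genes. ZNF277, a zinc finger protein (111846643 to 111983989), stood at 16.3 FPKM in dual-resistant cells, 38.7 FPKM in erlotinib-resistant cells and 13.4 FPKM in vehicle cells. IFRD1, a transcriptional coregulator, stood at 39.9 FPKM in dual-resistant, 77.6 in erlotinib-resistant and 40.4 in vehicle cells, a log2 difference of 0.93 between the erlotinib-resistant and vehicle libraries, under the limit. MLL5, now KMT2E, a chromatin regulator, stood at 18.0 FPKM in dual-resistant, 25.1 in erlotinib-resistant and 13.5 in vehicle cells, and HBP1, an HMG-box repressor, at 29.8 FPKM in dual-resistant, 37.2 in erlotinib-resistant and 27.9 in vehicle cells. POT1, which binds the single strand of telomeres, lies in segment 5 and stood at 10.2 FPKM in dual-resistant, 10.1 in erlotinib-resistant and 8.80 in vehicle cells. POLR2J, a subunit of RNA polymerase II, stood at 42.0 FPKM in dual-resistant, 55.9 in erlotinib-resistant and 41.0 in vehicle cells. The window holds near copies of it, POLR2J2 and POLR2J3, between which fragments could have been split. In dual-resistant cells 2 of the 15 were lower than in erlotinib-resistant cells, FOXP2 and ZNF277, and 1 was higher than in vehicle cells, MDFIC. These are 13.3% and 6.67% of the list, against 14.3% and 11.1% of the members and 7.22% and 11.0% of all genes. LRWD1, a partner of the origin recognition complex that was on none of the lists (102105390 to 102113612), stood at 18.4 FPKM in dual-resistant, 20.4 in erlotinib-resistant and 8.47 in vehicle cells, with erlotinib-resistant cells 2.26-fold over vehicle, and it overlaps POLR2J.

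Of 8 mitochondrial and metabolic genes, 7 passed 1 FPKM, and 2 were higher in erlotinib-resistant than in vehicle cells, with a median of 0.97. That is 28.6% of the 7, against 24.6% of the members and 3.81% of all genes. NAPEPLD, a phospholipase that releases N-acylethanolamines, stood at 6.48 FPKM in erlotinib-resistant cells and 2.53 in vehicle cells, and AASS, an enzyme of lysine breakdown, at 2.17 FPKM in dual-resistant cells, 2.70 in erlotinib-resistant cells and 0.729 in vehicle cells. PMPCB, a subunit of the mitochondrial processing peptidase, stood at 52.0 FPKM in dual-resistant, 73.5 in erlotinib-resistant and 36.7 in vehicle cells, just under the limit at a log2 difference of 0.98 between the erlotinib-resistant and vehicle libraries. DLD, the dihydrolipoamide dehydrogenase shared by several mitochondrial complexes (107531586 to 107561643), stood at 42.5 FPKM in dual-resistant, 38.0 in erlotinib-resistant and 19.8 in vehicle cells. Its value was highest in dual-resistant cells, at 2.09-fold over vehicle. NAMPT, the rate-limiting enzyme of NAD salvage (105888732 to 105925638), stood at 87.9 FPKM in dual-resistant, 187 in erlotinib-resistant and 169 in vehicle cells, and was 2.11-fold lower in dual-resistant than in erlotinib-resistant cells.

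All 11 genes of the Golgi, endoplasmic reticulum and secretion list passed 1 FPKM. Of these, 3 were higher in erlotinib-resistant than in vehicle cells, ST7, SYPL1 and TMEM168, with a median of 0.61 over the list. That is 27.3% of the 11, against 24.6% of the members and 3.81% of all genes. SYPL1, a vesicle membrane protein related to synaptophysin (105730952 to 105753057), stood at 72.3 FPKM in dual-resistant cells, 75.8 FPKM in erlotinib-resistant cells and 36.0 FPKM in vehicle cells, so both resistant libraries stood close together. TMEM168, a membrane protein, stood at 5.53 FPKM in dual-resistant, 12.5 in erlotinib-resistant and 5.20 in vehicle cells, with the dual-resistant library close to vehicle. FAM3C, a secreted protein linked in mouse mammary models to the change from epithelial to mesenchymal cells (120988905 to 121036422), stood at 46.9 FPKM in dual-resistant, 164 in erlotinib-resistant and 132 in vehicle cells. In dual-resistant cells it was 3.45-fold lower than in erlotinib-resistant cells and 2.77-fold lower than in vehicle cells. FAM3C, DNAJB9 and TMEM168 were the 3 of this list that were lower in dual-resistant than in erlotinib-resistant cells. The first 2 were also lower than in vehicle cells. These are 27.3% and 18.2% of the list, against 14.3% and 4.76% of the members and 7.22% and 10.4% of all genes. ARF5, a small GTPase of vesicle traffic near the far edge, stood at 86.4 FPKM in dual-resistant, 79.6 in erlotinib-resistant and 101 in vehicle cells.

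Of 9 genes on the list drawn up for protein quality and turnover, 4 passed 1 FPKM: PSMC2, DNAJC2, FBXL13 and ATXN7L1. DNAJC2 and FBXL13 were higher in erlotinib-resistant than in vehicle cells, with a median of 0.81 over the 4. They are 50% of the 4, against 24.6% of the members and 3.81% of all genes. The place of ATXN7L1 on this list is uncertain, and its log2 difference of 0.45 enters that median. DNAJC2, a chaperone partner at the ribosome (102952921 to 102985320), stood at 23.2 FPKM in dual-resistant cells, 39.3 FPKM in erlotinib-resistant cells and 17.0 FPKM in vehicle cells, and it overlaps PMPCB in position. FBXL13, an F-box protein, stood at 2.45 FPKM in dual-resistant, 4.29 in erlotinib-resistant and 1.10 in vehicle cells, and PSMC2, an ATPase of the proteasome, at 42.6 FPKM in dual-resistant, 55.4 in erlotinib-resistant and 46.2 in vehicle cells. None of the 4 passed the limit in either comparison with dual-resistant cells. Of 15 genes on the list drawn up for signalling, receptors and channels, among them WNT2, PIK3CG, KCND2 and GRM8, PRKAR2B alone passed 1 FPKM. The list is not complete: it leaves out ORAI2 and RASA4, which also passed 1 FPKM. ORAI2 stood at 6.82 FPKM in dual-resistant, 3.85 in erlotinib-resistant and 3.24 in vehicle cells. LOC401397, now SMIM30, a small membrane protein that was on none of the lists, stood at 45.3 FPKM in dual-resistant, 73.9 in erlotinib-resistant and 38.0 in vehicle cells, and ARMC10, an armadillo repeat protein, at 41.7 in erlotinib-resistant cells and 25.8 in vehicle cells.

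**Figure D3:**
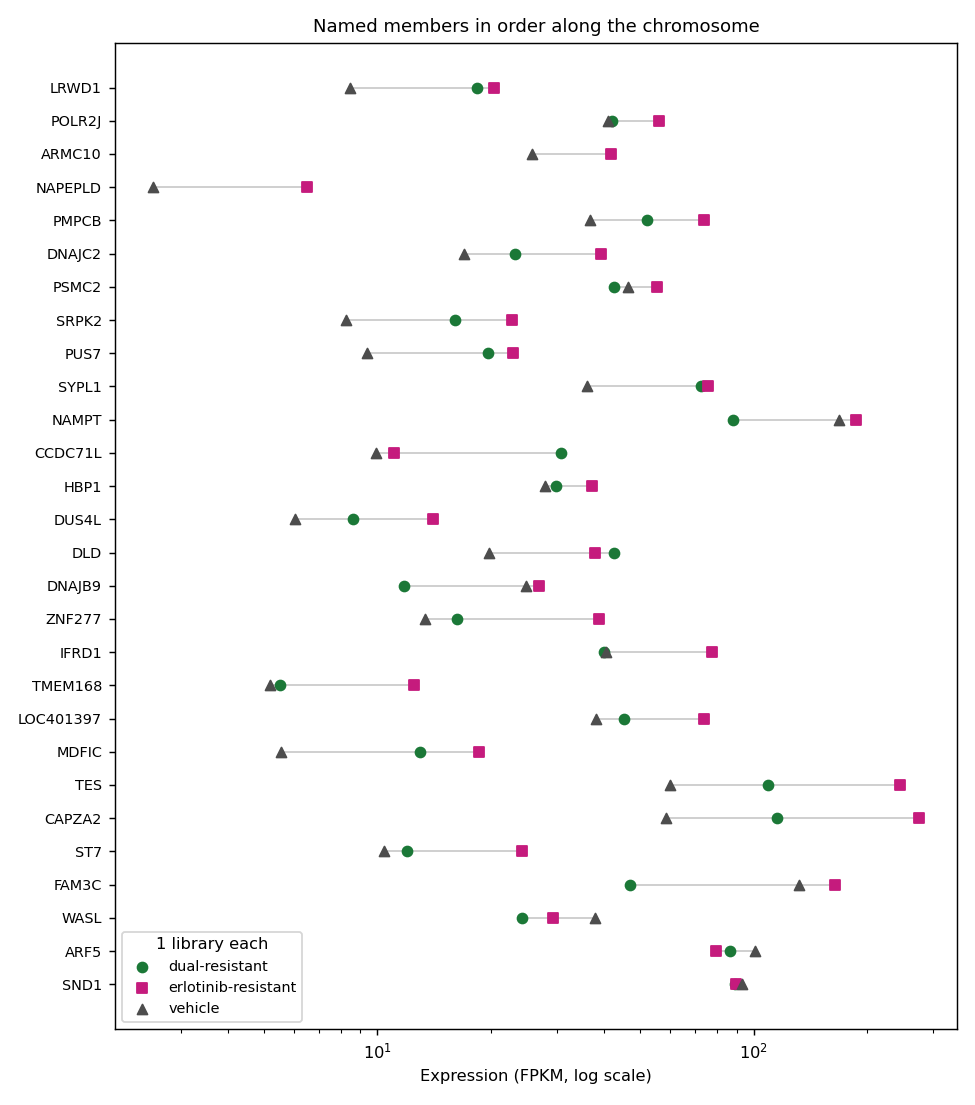
Expression in FPKM on a log axis (horizontal) of the 28 named members, in their order along the chromosome from top to bottom, with 1 point for each of the dual-resistant, erlotinib-resistant and vehicle libraries. From LRWD1 to ST7 most members have their highest value in erlotinib-resistant cells, and CCDC71L and DLD have it in dual-resistant cells. SND1 has nearly the same value in the 3 libraries, at 89.3 FPKM in dual-resistant, 89.9 in erlotinib-resistant and 93.0 in vehicle cells.

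Set against erlotinib-resistant cells, dual-resistant cells had 4 of 63 members higher and 9 lower, or 6.35% and 14.3%. Over all genes compared 10.1% were higher and 7.22% lower. The members' median was -0.40, against -0.03 for all genes. The erlotinib-resistant library, whose high values set the window, enters this comparison too, so lower values in dual-resistant cells are in part fixed by the choice of genes. The 9 lower members were CAPZA2, TES, ZNF277, TMEM168, FOXP2, NAMPT, FAM3C, DNAJB9 and the unnamed transcript uc022ajx, which was listed at 0 in dual-resistant cells. CAPZA2 was 2.37-fold lower, TES 2.23-fold and ZNF277 2.30-fold. After scaling to equal sums, NAMPT at -0.99 and TMEM168 at -0.97 lay within the limit. By segment the medians were -0.23, -0.72, -0.95, -0.43 and -0.01, in order from the centromere side.

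The 4 members that were higher in dual-resistant than in erlotinib-resistant cells lie in the first 2 segments. CCDC71L, a coiled-coil domain gene (106297211 to 106301634), stood at 30.7 FPKM in dual-resistant cells, 11.1 FPKM in erlotinib-resistant cells and 9.92 FPKM in vehicle cells. PRKAR2B, a regulatory subunit of protein kinase A, stood at 3.26 FPKM in dual-resistant, 0.581 in erlotinib-resistant and 0.318 in vehicle cells, and DOCK4, an activator of the GTPase Rac, at 4.03 FPKM in dual-resistant, 1.16 in erlotinib-resistant and 0.579 in vehicle cells. The pseudogene DPY19L2P2 stood at 1.34 FPKM in dual-resistant, 0.0844 in erlotinib-resistant and 0.0208 in vehicle cells. DPY19L2P2 and PRKAR2B passed 1 FPKM only there, and the filter fixed their direction.

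Set against vehicle cells, dual-resistant cells had 7 of 63 members higher and 3 lower, or 11.1% and 4.76%. Over all genes 11.0% were higher and 10.4% lower, so the share of higher members was that of the background. With the genes left out by the rule put back, 10 of 68 were higher and 3 lower. The median of the members was 0.37, against -0.01 for all genes and 0.26 for the 593 genes of chromosome 7 outside the window. The split of 7 higher and 3 lower became 14 and 2 after scaling the FPKM to equal sums, and 10 and 2 after scaling by the median ratio. All genes moved too: 15.4% were then higher and 7.88% lower under equal sums, and 11.6% and 9.96% under the median ratio. Higher were CCDC71L, PRKAR2B, DOCK4, DPY19L2P2, DLD, MDFIC and LRWD1, and lower were FAM3C, DNAJB9 and uc022ajx. MDFIC was 2.13-fold and LRWD1 2.05-fold higher. CAPZA2 was 1.95-fold and TES 1.81-fold higher than in vehicle, both under the limit, whereas MET between them differed by a log2 difference of -0.04. PUS7 and SYPL1, at 1.99-fold and 1.98-fold, also lay just under it. After scaling to equal sums, TES at 1.12, CAPZA2 at 1.23, SRPK2 at 1.13, PUS7 at 1.24 and SYPL1 at 1.25 passed the limit, and DNAJB9 at -0.76 did not. After scaling by the median ratio, PUS7 at 1.03, SYPL1 at 1.02 and CAPZA2 passed it and DNAJB9, at -0.98, did not.

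Of the 63 members with a value in each library, 11 had their highest value in dual-resistant cells, 47 in erlotinib-resistant cells and 5 in vehicle cells. Over all genes the shares were 35.9% in dual-resistant, 29.9% in erlotinib-resistant and 34.2% in vehicle cells. The count for erlotinib-resistant cells follows from how the window was picked and is given as a description.

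Some members start back to back, on opposite strands and within 1000 bases of each other. Among the 55 members over 1 FPKM with a RefSeq promoter, 6 such pairs were found from the RefSeq starts. Pairs with a member under 1 FPKM or with an unnamed transcript were not searched for. Genes of a pair share the DNA between their starts. COG5, a subunit of a Golgi tethering complex, and DUS4L start 51 bases apart, and both had their highest value in erlotinib-resistant cells. COG5 stood at 16.2 FPKM in dual-resistant cells, 23.7 FPKM in erlotinib-resistant cells and 13.5 FPKM in vehicle cells, and its rows overlap those of DUS4L. DOCK4 and ZNF277 start 296 bases apart and had different orders: DOCK4 was highest in dual-resistant cells, at 4.03 FPKM, and ZNF277 in erlotinib-resistant cells, at 38.7 FPKM. Between the dual-resistant and erlotinib-resistant libraries DOCK4 differed by 1.22 on the log2 scale and ZNF277 by -1.20.

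THAP5, a zinc finger protein, and DNAJB9, a co-chaperone of the endoplasmic reticulum that is induced by unfolded proteins, start 106 bases apart at their nearest listed starts. THAP5 stood at 6.93 FPKM in dual-resistant cells, 13.7 FPKM in erlotinib-resistant cells and 7.67 FPKM in vehicle cells, and DNAJB9 at 11.7 FPKM in dual-resistant, 27.0 in erlotinib-resistant and 24.8 in vehicle cells. The dual-resistant library was thus the lowest for both, and the erlotinib-resistant and vehicle libraries stood apart for THAP5, at a log2 difference of 0.76, and close for DNAJB9, at 0.12. In the other pairs, erlotinib-resistant over vehicle cells, ALKBH4 differed by 0.50 and LRWD1 by 1.18, and FBXL13 by 1.33 and ARMC10 by 0.67. LOC100216545, now KMT2E-AS1, differed by -0.07 and MLL5 by 0.85. The strandedness of the libraries is not given in the sources used here, so fragments of genes on opposite strands that overlap cannot be told apart.

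The promoters of the plus-strand genes of 3 pairs are shown because each lies at the start shared with a partner that had the same or another order of values. They come from RefSeq (GRCh38.p14) and run from 250 bases before the start to 50 after it, at chr7:107563721-107564020 for DUS4L, chr7:108569624-108569923 for DNAJB9 and chr7:112206445-112206744 for ZNF277, all on the plus strand. Capitals mark CCAAT and GGGCGG on either strand.
DUS4L: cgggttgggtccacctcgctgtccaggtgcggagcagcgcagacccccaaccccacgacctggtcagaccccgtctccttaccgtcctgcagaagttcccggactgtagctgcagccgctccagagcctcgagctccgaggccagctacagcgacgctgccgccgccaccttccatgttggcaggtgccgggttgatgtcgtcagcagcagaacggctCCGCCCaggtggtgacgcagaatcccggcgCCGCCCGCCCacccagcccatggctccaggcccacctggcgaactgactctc
DNAJB9: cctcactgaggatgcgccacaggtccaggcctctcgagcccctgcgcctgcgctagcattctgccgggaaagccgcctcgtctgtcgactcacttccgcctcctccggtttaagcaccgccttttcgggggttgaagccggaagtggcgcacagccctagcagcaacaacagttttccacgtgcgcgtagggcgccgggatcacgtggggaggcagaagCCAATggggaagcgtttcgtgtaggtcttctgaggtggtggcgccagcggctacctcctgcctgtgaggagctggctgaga
ZNF277: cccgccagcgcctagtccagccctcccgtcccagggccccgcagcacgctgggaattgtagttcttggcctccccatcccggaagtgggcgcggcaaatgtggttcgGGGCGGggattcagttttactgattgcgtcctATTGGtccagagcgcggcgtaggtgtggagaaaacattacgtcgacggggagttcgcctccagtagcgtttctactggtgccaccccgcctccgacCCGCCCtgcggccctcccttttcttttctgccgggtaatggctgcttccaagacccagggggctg
DUS4L holds 3 matches to GGGCGG, of which 2 overlap, and none to CCAAT. DNAJB9 holds 1 match to CCAAT and none to GGGCGG, and ZNF277 holds 1 and 2. None of the 3 holds TATAAA. A RefSeq promoter was found for 55 of the 65 members over 1 FPKM, at 78 starts, of which 38.5% hold CCAAT, 59.0% GGGCGG and 11.5% TATAAA. The shares over all 35116 promoters given above also take in genes under 1 FPKM, so the sets are not alike.

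**Figure D4:**
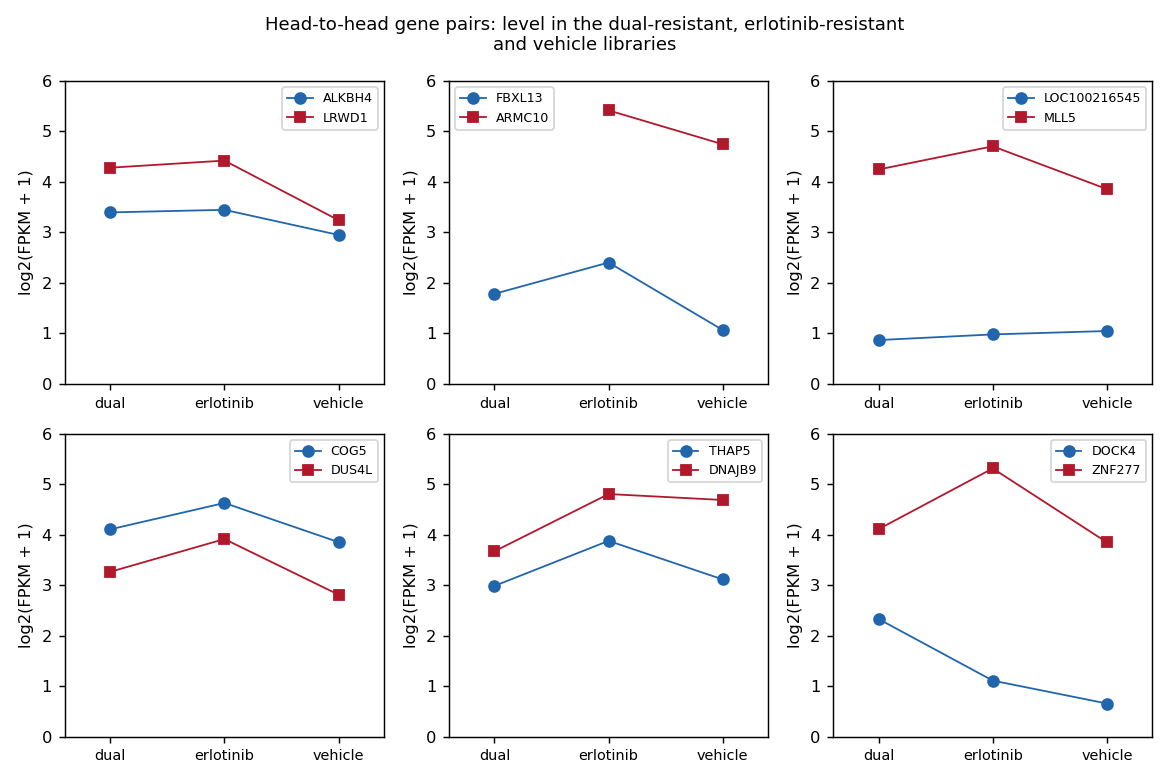
Level as log2(FPKM + 1) (vertical axis) of the 6 back-to-back pairs in the dual-resistant, erlotinib-resistant and vehicle libraries (horizontal axis), with the minus-strand gene as blue circles and the plus-strand gene as red squares. ARMC10 has no value in dual-resistant cells. The lines of COG5 and DUS4L run side by side, and those of DOCK4 and ZNF277 part between the dual-resistant and erlotinib-resistant libraries.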

How the data were processed

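The data are 1 RNA sequencing library for each of the dual-resistant, erlotinib-resistant and vehicle populations. The authors deposited FPKM, made with TopHat 1.3, Cufflinks 1.3 and build GRCh37, per the submitters' processing notes. Sources used here do not name the gene set, strandedness or settings. Rows sharing a symbol were summed, and log2(FPKM + 1) was compared on the whole table between libraries, for genes that reached 1 FPKM in any library (Python 3.11.15, pandas 2.3.3). The calling code was run on simulated data with planted changes well past the limit and little noise. This checks the code only and gives no error rate for the calls. A missing cell left a gene out of that comparison. Table starts were taken to count from 0 and are printed from 1: 58 rows have the end of a RefSeq gene, and 21 of them begin 1 base ahead of its start and 3 on it.

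The worth of 1 fragment was taken as percentile 1 of values above 0, multiplied by length, in single-exon genes of 1 to 5 kb. This counting depth is approximate, and counting error is only part of the error. An exact 0 can be a failed estimate: the dual-resistant library lists 23 of 8484 genes at 0 that have 5 FPKM or more in the other two, the erlotinib-resistant library 11 of 8227 and the vehicle library 13 of 8401. Current symbols and promoters were matched by Entrez ID to RefSeq tables (GRCh38.p14), which 115 of 171 members could be.

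The members, lists and comparisons were chosen with earlier results of these data known. Members with at least 5 FPKM in a library and a log2 difference of 1 or more in any comparison were named (18), with the 10 highest of the others, and lower ones were added after their values were seen. Alternatives covered the pseudocount, the filter, the scaling, listed zeros and the genes the rule leaves out.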

Additional observations from a re-analysis of the deposited data

How the results depend on the processing

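With 1 library per group, no replicate could be left out. No paired analysis was possible because each group has 1 library. A pseudocount of 0.1 moved the members' median to 0.83 for erlotinib-resistant over vehicle. It gave 13 of 63 members higher in dual-resistant over vehicle, where 14.2% of all genes were higher. A pseudocount of 5 left 6 of 65 members higher (median 0.41) for erlotinib-resistant over vehicle, where 1.25% of all genes were higher. It left 1 of 63 higher and 5 lower (median -0.28) for dual-resistant over erlotinib-resistant, against 4.42% and 3.41% of all genes. For dual-resistant over vehicle it left 1 of 63 higher and 1 lower (median 0.19), against 5.13% and 5.58%. With no filter most members lie at or near 0, and the medians were 0.00078, 0 and 0 in that order. With a filter of 5 FPKM, 1 of 49 members was higher in dual-resistant over erlotinib-resistant, against 8.94% of all genes. In dual-resistant over vehicle 4 of 49 were higher (median 0.25), against 10.6%. Scaling to the same sum moved the median of all genes to 0.14 for erlotinib-resistant over vehicle and 0.22 for dual-resistant over vehicle. The members' medians were then 0.84 and 0.57, which is 0.70 and 0.35 above all genes. Higher were 24 of 65 and 14 of 63 members, against 5.53% and 15.4% of all genes. That scaling moved higher genes from 38.7% to 53.7% of all calls in the first comparison and from 51.3% to 66.1% in the last. With the genes left out by the rule put back, 20 of 70 were higher in erlotinib-resistant over vehicle (median 0.74), against 3.81% of all genes. For dual-resistant over erlotinib-resistant 4 of 68 were then higher and 10 lower, against 10.1% and 7.22%. For dual-resistant over vehicle 10 of 68 were higher and 3 lower (median 0.37), against 11.0% and 10.4%.

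Chosen after seeing the data, leaving out members that overlap another gene gave medians of 0.59 and 0.25 over vehicle. Requiring 1 FPKM in all 3 libraries, also chosen then, gave 1 of 54 members higher in dual-resistant over erlotinib-resistant, against 6.25% of all genes. In dual-resistant over vehicle 4 of 54 were higher, against 7.98%. Without members within 2 Mb of MET, the medians were 0.59 for erlotinib-resistant over vehicle and -0.30 for dual-resistant over erlotinib-resistant. Of 638 values of the 28 named members under the alternatives, 605 kept their side of the limit, 17 fell under it and 16 passed it. The filters and the removal of listed zeros leave a named member's value unchanged, so those values kept their side by construction. Every change came from the pseudocounts and the scalings. A reversal was counted only for values past the limit in the main setting, and there was none. The causes were not tested.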

Other observations

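A few members under 1 FPKM stood apart between libraries. NRCAM, a neuronal adhesion molecule, had 0.520 FPKM in dual-resistant cells, 0.0233 FPKM in erlotinib-resistant cells and 0.0228 FPKM in vehicle cells. GPR37, an orphan receptor, stood at 0.419 FPKM in dual-resistant, 0.0316 in erlotinib-resistant and 0.0712 in vehicle cells. These were chosen after their values were seen, and the lowest of the values rest on few fragments. The chloride channel gene CFTR had 0.0252 FPKM in dual-resistant, 0.0279 in erlotinib-resistant and 0.0948 in vehicle cells.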
